A study of Homo sapiens with 267 samples.

Results

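RHAG, GYPB, GYPC, EPB41, EPB42, ANK1, SPTB and SLC4A1 are genes of the red cell membrane and of the protein skeleton beneath it. They were chosen by name, as the rows of the count table that map to these 8 symbols among the 63677 genes listed, and all 8 were found. Their reads were counted in single-cell libraries of K562, an established human leukaemia line of erythroid character that carries the BCR-ABL fusion, prepared on the Fluidigm C1 system in a study of cell preservation with the reversible cross-linker DSP. The labels gave 5 groups. A run stained with Hoechst held 96 untreated libraries at passages 90 to 92. In the benzene run, 38 CellTracker Green libraries were untreated and 37 CellTracker Orange libraries carried the label benzene, 10 mM for 3 h. In the imatinib run, 51 CellTracker Green libraries were untreated and 45 CellTracker Orange libraries carried the label imatinib, an inhibitor of the ABL kinase, 1 µM for 1 h. Both CellTracker runs were at passages 20 to 22. Within a CellTracker run the dye and the drug changed together and cannot be told apart, and the fresh, fixed, bulk and empty-site libraries of the study were not separated here.

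The red cell membrane owes its shape and elasticity to a lattice of spectrin held to the lipid bilayer at junctions of different kinds. At the ankyrin junction, ANK1 ties beta-spectrin (SPTB) to the anion exchanger SLC4A1, with EPB42 and the Rh-associated glycoprotein RHAG close by. At the actin junction, EPB41 joins spectrin and actin to glycophorin C (GYPC), while GYPB is a sialoglycoprotein of the bilayer that carries blood group antigens. Most of these genes are switched on in stages as erythroblasts mature, and loss of several of them causes hereditary spherocytosis or elliptocytosis.

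GYPB has a near-copy, GYPE, and belongs to a family that shares sequence, which matters for every GYPB count given here. The opening 120 coding bases of GYPB and GYPE are shown to make this plain, since they differ at 4 positions, set in capitals (GRCh37, minus strand, transcripts ENST00000502664 and ENST00000358615). The GYPB bases come from exons at chr4:144940404-144940440 and chr4:144922354-144922436 and those of GYPE from chr4:144826624-144826660 and chr4:144801580-144801662.
GYPB: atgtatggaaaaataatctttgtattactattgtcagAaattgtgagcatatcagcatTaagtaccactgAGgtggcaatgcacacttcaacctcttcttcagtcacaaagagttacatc
GYPE: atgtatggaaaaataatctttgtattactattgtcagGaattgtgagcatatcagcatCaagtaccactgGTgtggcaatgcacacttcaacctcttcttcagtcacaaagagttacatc
Over the aligned coding sequence 86.3% of the bases were identical (202 of 234). Of the stretches of 75 bases in annotated GYPB transcripts, 10.5% also occurred in another gene (255 of 2433), and none occurred in GYPE. With 100 bases, the read length of the Hoechst run, the shared part was 6.13%. The study counted reads that mapped to 1 gene, so the GYPB values are uncertain by the reads of these shared stretches.

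The stretches of 150 bases before the annotated start are shown for RHAG, SPTB and EPB42, a high, an uneven and a low member, because each holds the letters AGATAA or TGATAA that erythroid GATA factors are known to bind, on one strand or the other. They are RefSeq promoters of GRCh38.p14, on the minus strand, at chr6:49636840-49636989, chr14:64879908-64880057 and chr15:43221019-43221168, with the matches in capitals. The motifs differ in their first letter, so no stretch counts for both.
RHAG: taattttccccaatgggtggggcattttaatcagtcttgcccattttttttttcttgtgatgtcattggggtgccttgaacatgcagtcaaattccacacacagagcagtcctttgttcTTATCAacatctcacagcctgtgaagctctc
SPTB: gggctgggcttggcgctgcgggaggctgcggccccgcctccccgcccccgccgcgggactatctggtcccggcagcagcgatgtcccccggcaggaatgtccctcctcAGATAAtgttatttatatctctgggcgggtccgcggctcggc
EPB42: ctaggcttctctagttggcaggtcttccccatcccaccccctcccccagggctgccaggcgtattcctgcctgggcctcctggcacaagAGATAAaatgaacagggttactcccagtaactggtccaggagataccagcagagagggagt
The matches begin 31, 42 and 61 bases before the start. Among the windows of 300 bases examined for the members, 5 of 9 held a match, in RHAG, GYPB, EPB42 and SPTB, against 16.3% of all 35116 windows. The 2 GYPB windows overlap and hold the same match, so the 5 windows hold 4 genes' matches. GYPC and EPB41 held none, and ANK1 and SLC4A1 were not examined. RHAG, with a match, and GYPC, without one, were detected in 99.6% and 92.1% of the kept libraries, and EPB42, with a match, in 24.4%.

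Counts were matched to 263 of the 267 libraries. A library was left out when its 500 most abundant genes took more than 70% of its reads, which kept 82 libraries of the Hoechst run, 31 and 34 Green and Orange libraries of the benzene run, and 50 and 45 of the imatinib run, 242 in all. Kept libraries held between 50358 and 2043351 reads on genes, and median depth lay between 1231546 and 1345125 in every group. The median number of genes with more than 2 reads was 7410.5 in the Hoechst run, 5905 in the benzene run and 8022 in the imatinib run, and mitochondrial genes took a median of 12.5% of reads in the Hoechst run against 6.48% and 6.68% in the others. PRAME, GATA1 and the fetal and embryonic globins HBG2, HBG1 and HBE1, which mark K562, were each detected in at least 97.5% of kept libraries. The list of 7 K562 markers also holds BCR and ABL1, whose detection is not given here. Of the markers of other blood cells, GP9, MPO, MS4A1 and CD79A had 2 reads or fewer in all, while the myeloid LYZ was detected in 68.6% of libraries. Summed over the list, 6 myeloid markers stood between 19.5 and 43.8 CPM in the 5 groups and 5 lymphoid markers between 2.20 and 12.7 CPM, both highest in Orange of the imatinib run. A gene is called detected in a library at 3 or more reads, and CPM are counts per 1000000 reads on genes. The labels name no separate cultures within a group, so each group counts as 1 sample and its libraries are not replicates of a treatment. Groups are therefore compared by summed counts without a test, and the 95% intervals given (exact Poisson for sums, exact Clopper-Pearson for shares) cover counting error only.

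The members spanned a wide range of levels, from a transcript found in nearly every library to one found in almost none. Per kilobase of exon over all kept libraries, the level of RHAG was 285 CPM per kb, followed by ANK1 (18.1), GYPB (16.96), GYPC (16.8), EPB41 (6.06), SPTB (2.97), EPB42 (2.58) and SLC4A1 (0.278). RHAG alone supplied 61.7% of all reads on the 8 genes. The same scale put RHAG first and SLC4A1 last in each of the 3 runs, with ANK1, GYPB and GYPC next, then EPB41, then SPTB and EPB42. The order within ANK1, GYPB and GYPC changed from run to run, as did that of SPTB and EPB42, and the quartiles of these neighbours over libraries overlapped. Divided by the longest transcript in place of all exons, GYPB (51.2) and GYPC (33.5) moved above ANK1 (23.6).

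**Figure D1:**
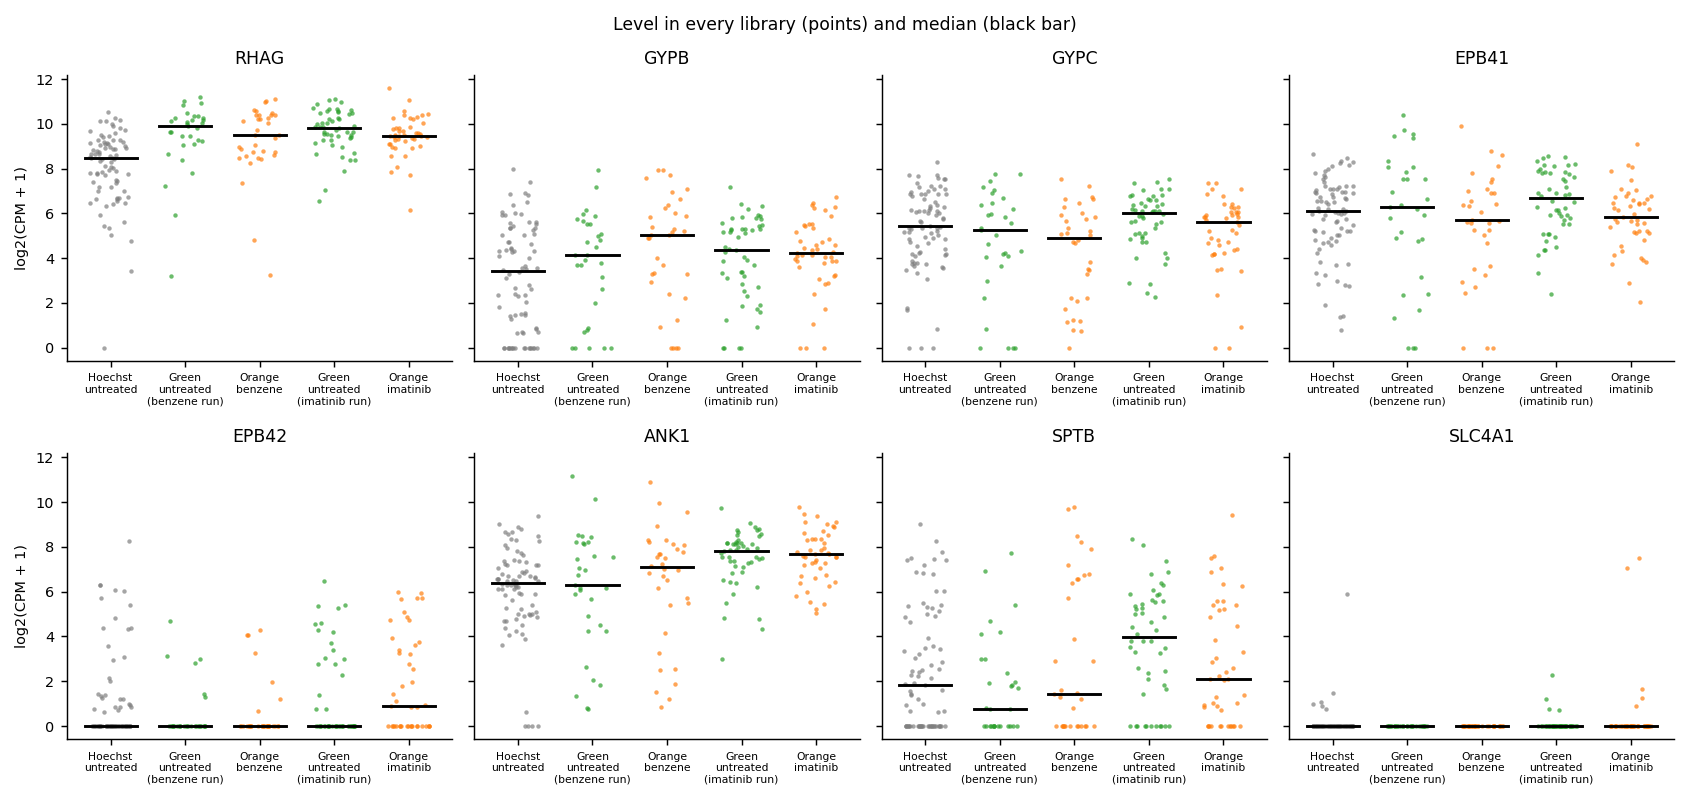
Level of each member in each kept library as log2(CPM + 1), 1 point a library, with the group median as a black bar, in the 5 groups of stain and drug. RHAG sits high in every group and lower in the Hoechst run, ANK1, EPB41 and GYPC spread over several units, and SPTB, EPB42 and SLC4A1 have many libraries at 0.

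RHAG, a channel for ammonia and carbon dioxide that the Rh antigens need to reach the surface (chr6:49572888-49604552, GRCh37, minus strand), was found in nearly every library. It was detected in 241 of 242 kept libraries (99.6%, interval 97.7% to 100%). Summed levels were 369 CPM (365 to 372) in the Hoechst run, 983 and 913 CPM in Green and Orange of the benzene run, and 1010.5 and 855 CPM in Green and Orange of the imatinib run. The Hoechst run was therefore the low one, and the 4 CellTracker groups lay close together. Over its libraries the Hoechst run ran from 0 to 1471 CPM with a median of 350 and an upper quartile of 559, which lay below the lower quartiles of the untreated Green groups, 576 and 629. Medians in the CellTracker groups were between 709 and 973 CPM. The SD of log2(CPM + 1) was 1.68 in the Hoechst run, 1.62 in the benzene run and 0.94 in the imatinib run. No other member had a smaller SD in the imatinib run, in which the least of the 95 libraries still held 69.6 CPM.

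The glycophorins were detected in most libraries at modest levels. GYPC, the anchor of the actin junction (chr2:127413709-127454243, plus strand), was summed at 71.1 CPM in the Hoechst run, 56.1 and 40.9 CPM in Green and Orange of the benzene run, and 66.8 and 53.4 CPM in Green and Orange of the imatinib run. It was lower in Orange than in Green in both runs, by 1.37-fold and 1.25-fold, and its medians (37.6 against 29.2 CPM and 64.1 against 47.9 CPM) lay in the same order with overlapping quartiles. Detection was 93.9% in the Hoechst run, 83.1% in the benzene run and 96.8% in the imatinib run. GYPB (chr4:144917257-144940533, minus strand) was summed at 26.2 CPM in the Hoechst run, 33.4 and 56.9 CPM in Green and Orange of the benzene run, and 28.4 and 27.3 CPM in Green and Orange of the imatinib run. Orange of the benzene run thus stood above the other groups, which lay between 26.2 and 33.4 CPM. GYPB was detected in 65.9%, 78.5% and 88.4% of libraries of the Hoechst, benzene and imatinib runs, and after random thinning of every library to 500000 reads in 48 of 80, 46 of 65 and 77 of 95 libraries. GYPB therefore kept this order of runs at equal depth. The near-copy GYPE had a larger difference between runs, with 53.6, 210 and 57.5 CPM.

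ANK1, the adaptor between spectrin and the membrane, was the second member by reads. Its sums were 130 CPM in the Hoechst run, 215 and 228 CPM in Green and Orange of the benzene run, and 231 and 256 CPM in Green and Orange of the imatinib run. Single libraries weighed on the benzene run, where the highest Green library held 2312 CPM, or 26.4% of the reads of its group, and the highest Orange library 1910 CPM. Medians over libraries were 83.5 CPM in the Hoechst run, 77.1 and 136 CPM in the benzene run and 228 and 204 CPM in the imatinib run. By its medians, then, ANK1 in untreated Green libraries was low in the benzene run and high in the imatinib run, although the sums were 1.07-fold apart. At least 100 CPM was reached in 33 of 82 Hoechst libraries, 15 of 31 and 21 of 34 libraries of the benzene run, and 40 of 50 and 35 of 45 of the imatinib run.

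EPB41, which joins spectrin to actin and to GYPC (chr1:29213603-29446558, plus strand), was lower in Orange than in Green in both CellTracker runs. Its sums were 95.6 CPM in the Hoechst run, 218 against 115 CPM in Green and Orange of the benzene run, and 134 against 86.8 CPM in Green and Orange of the imatinib run. Medians ran the same way, 76.5 against 50.7 CPM and 101 against 56.8 CPM. In the benzene run 1 Green library at 1359 CPM gave 21.7% of its group's reads and 1 Orange library at 955 CPM gave 23.4%. Libraries with at least 100 CPM numbered 13 of 31 Green and 11 of 34 Orange in the benzene run, and 25 of 50 Green and 11 of 45 Orange in the imatinib run. The quartiles of Green and Orange overlapped in both runs (17.1 to 248 against 14.98 to 126 CPM, and 47.02 to 223 against 34.01 to 97.9 CPM).

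SPTB, the beta chain of the spectrin tetramer (chr14:65213001-65346625, minus strand), had the widest SD of log2(CPM + 1) of the 8 members over all kept libraries, 2.77, with many libraries at or near 0 and a few at high levels. It was summed at 36.4 CPM in the Hoechst run, 14.1 and 100.2 CPM in Green and Orange of the benzene run, and 38.2 and 40.7 CPM in Green and Orange of the imatinib run. Medians were 2.60, 0.708, 1.73, 14.8 and 3.31 CPM in the same order. The high sum of Orange benzene thus came from a minority of libraries. In that group 8 of 34 libraries held at least 100 CPM and 90.1% of the reads, led by 883 and 833 CPM, against 2 of 31 Green libraries with 208 and 120 CPM. SPTB was detected in 16 of 34 Orange libraries (47.1%, interval 29.8% to 64.9%) and in 14 of 31 Green libraries (45.2%, interval 27.3% to 63.97%), and after thinning in 44.1% and 25.8%. Detection in the imatinib run was 38 of 50 Green and 25 of 45 Orange libraries, and 1 Orange library at 698 CPM held 37.1% of the reads of its group. Of the exons of SPTB, 23% overlap PLEKHG3 on the other strand, and the library kit does not mark strand. PLEKHG3 itself had at most 0.0176 CPM in any group and no reads in the library with the highest SPTB level of each group.

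EPB42, a partner of SLC4A1 at the ankyrin junction (chr15:43489425-43513216, minus strand), was a rare transcript. It was detected in 16 of 82 Hoechst libraries (19.5%), 9 of 65 libraries of the benzene run (13.8%) and 34 of 95 of the imatinib run (35.8%, interval 26.2% to 46.3%). Sums were 11.3 CPM in the Hoechst run, 1.37 and 1.87 CPM in Green and Orange of the benzene run, and 6.66 and 10.9 CPM in Green and Orange of the imatinib run. The share of libraries with EPB42 was thus highest in the imatinib run, while the sum was highest in the Hoechst run. A single Hoechst library with 581 reads (309 CPM) supplied 49.2% of the EPB42 reads of that run. In that library EPB41, ANK1 and SPTB were also high, at 319, 304 and 215 CPM, while SLC4A1 had no reads. The library next in EPB42 reads, also of the Hoechst run (122 reads), had 27.1 CPM of EPB41, no ANK1 reads and 2.52 CPM of SPTB. After it came a Green imatinib library with 108 EPB42 reads and no SPTB reads. Of the stretches of 75 bases in EPB42 transcripts, 12.1% occur in another annotated gene that the count table does not list.

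SLC4A1, the chloride and bicarbonate exchanger that is the main integral protein of the mature red cell (chr17:42325758-42345509, minus strand), was almost absent. It was detected in 6 of 242 libraries (2.48%, interval 0.915% to 5.32%), with 83 reads in the Hoechst run, 11 in Green and 351 in Orange of the imatinib run, and none in the benzene run. With a limit of 3 counts, the 0 reads of the benzene run allow up to 0.0340 CPM and 0 of 65 libraries allows a share of up to 4.62%, while the exact 95% intervals end at 0.0418 CPM and 5.52%. Single libraries held most of what was seen, 76 of the 83 Hoechst reads and 218 of the 351 Orange reads. One Orange imatinib library had 179 CPM of SLC4A1 together with 27.9 CPM of EPB42 and 47.6 CPM of SPTB. Another, with 127 reads (130 CPM) of SLC4A1, had no EPB42 reads and 1.03 CPM of SPTB. The Hoechst library with 76 reads had none of EPB42 or ANK1 and 183 CPM of SPTB. The anion exchanger SLC4A2, which most cell types use, was summed at 30.1, 26.5 and 73.5 CPM in the Hoechst, benzene and imatinib runs and was detected in 70.7%, 55.4% and 95.8% of libraries.

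**Figure D2:**
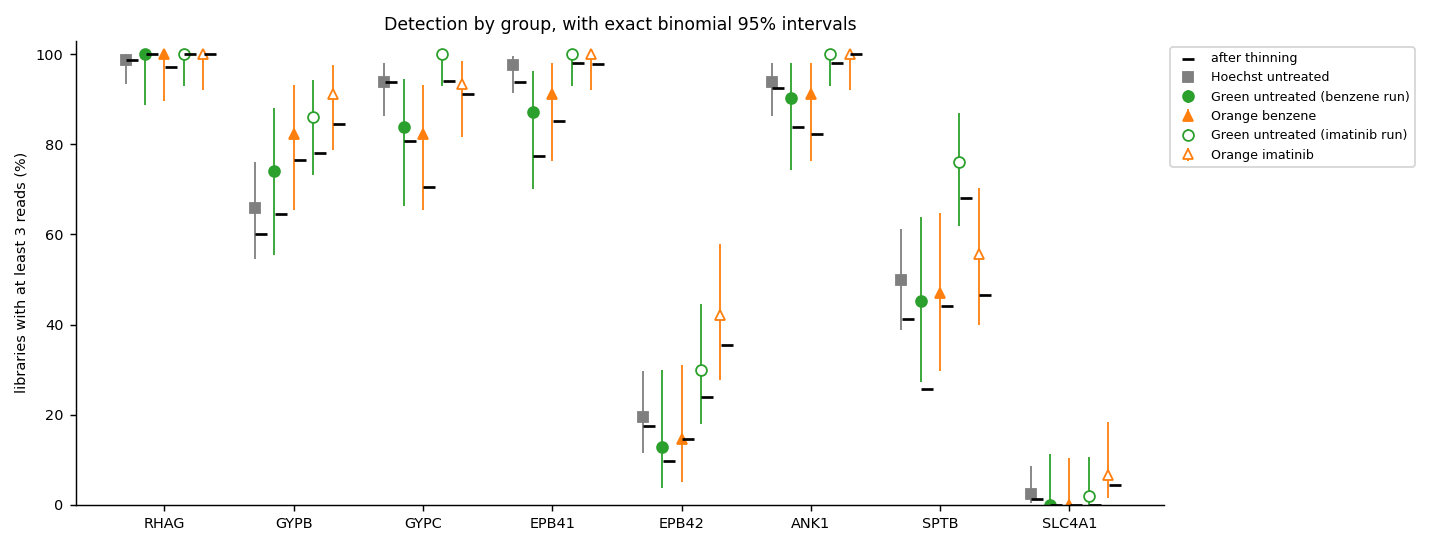
Share of kept libraries with at least 3 reads of each member in the 5 groups, with exact binomial 95% intervals, and the share after thinning to 500000 reads as black dashes. RHAG, ANK1, EPB41 and GYPC lie above 80% in all groups, SPTB below 80% and above 40%, EPB42 between 12.9% and 42.2% and SLC4A1 at or below 6.67%.

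Counted per library, between 3 and 8 of the members were detected, with a median of 5 in the Hoechst and benzene runs and 6 in the imatinib run. Nearly all libraries therefore held part of the set. All 8 were found in 2 libraries, both of the imatinib run. One of them, a Green library, held 11208 detected genes and 7 reads of SLC4A1. It was among 12 of the 242 kept libraries with more than 10000 detected genes, which may be bulk samples. At least 50% of libraries detected 6 members in the Hoechst run (RHAG, GYPB, GYPC, EPB41, ANK1 and SPTB, the last in 41 of 82 libraries), 5 in the benzene run, where SPTB fell to 46.2%, and the same 6 in the imatinib run. After thinning, SPTB was detected in 41.2%, 35.4% and 57.9% of libraries, so that in the Hoechst run 5 members remained. Medians per library after thinning were 5 and 5 members in the Hoechst and benzene runs and 6 in the imatinib run.

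Orange and Green libraries were compared within each run to ask what changed with the dye and the drug. In the benzene run SPTB was 7.11-fold higher in Orange (log2 ratio 2.75 with 1 CPM added to each sum, as for all log2 ratios here), and no other member passed 2-fold in either direction. GYPB was 1.71-fold higher in Orange, EPB41 1.89-fold lower, and RHAG and ANK1 were within 1.08-fold. Among the 6 members with at least 3 reads in at least 20% of the libraries of either group, 1 was higher by 2-fold and 0 were lower, where 12.9% and 10.9% of all 10072 genes so filtered were. SPTB stayed higher under every alternative, between 1.46 as a difference of means of log2(CPM + 1) and 2.96 without its top library in each group. Their median log2 ratio was -0.01, beside 0.05 for all these genes. In the imatinib run 0 of 7 members passed 2-fold, where 3.76% of 11416 genes were higher and 4.3% lower. EPB41 was 1.54-fold lower in Orange and EPB42 1.63-fold higher. SPTB had a log2 ratio of 0.09, which turned to -0.29 without the library with the most SPTB reads in each group and to -0.84 as a difference of means of log2(CPM + 1). The median log2 ratio was -0.06, beside -0.02 for all genes tested. SLC4A1, which fell under the detection minimum, had 35.5 times the CPM in Orange, and without the 1 library with the most SLC4A1 reads in each group its log2 ratio went from 2.615 to 1.67. Another Orange library, with 127 SLC4A1 reads, stayed in that ratio.

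**Figure D3:**
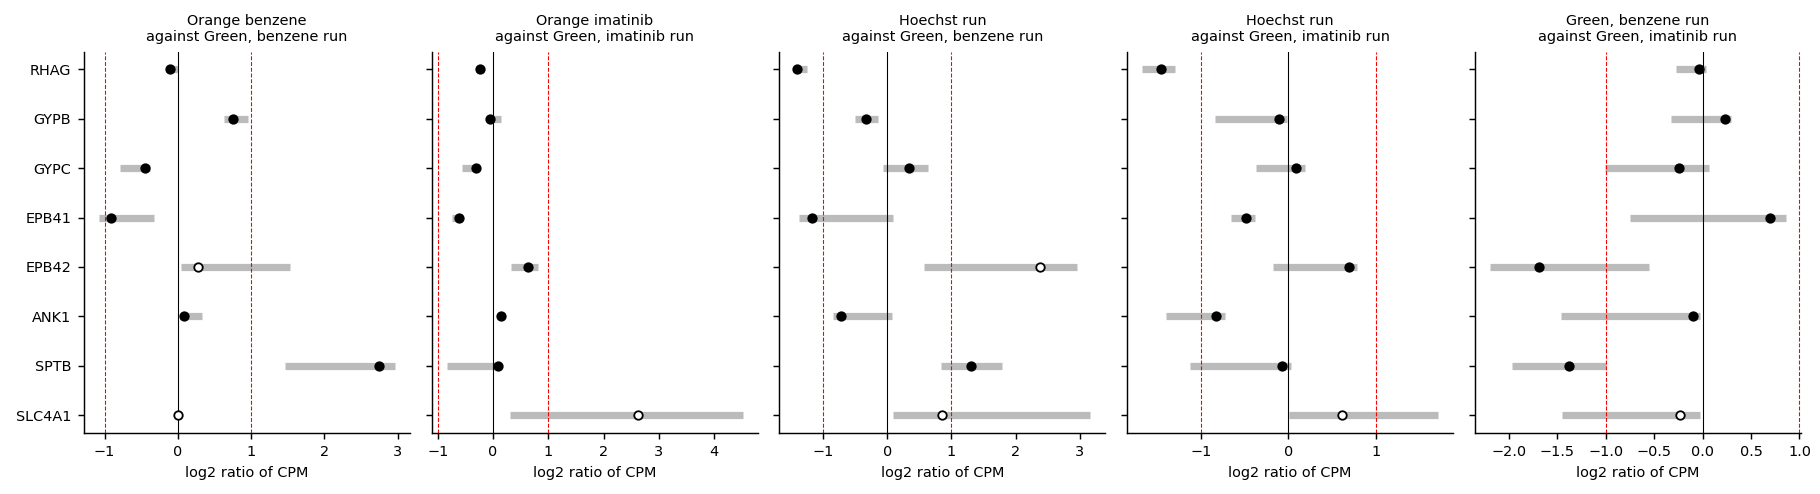
Log2 ratio of summed CPM (pseudocount 1 CPM) for each member in 5 comparisons of groups, as filled points, or open points for members below the detection minimum. Grey bars span the alternative settings and dashed red lines mark 2-fold. In each comparison SPTB or EPB41 has the widest bar among the 6 members tested in all of them, and RHAG lies beyond -1 in both comparisons with the Hoechst run.

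The direction shared by the 2 Orange groups was tested on the 4 sums with edgeR's quasi-likelihood test, with run as a term and Benjamini-Hochberg adjustment over 17684 genes. None of the 7 members tested was called, and 0.0% of all genes were (0 genes, with 439 at an unadjusted p under 0.05). EPB41 had a log2 ratio of -0.79 (SE 0.22) with an edgeR p of 0.0229 and an adjusted p of 1, and it was lower in 2 of 2 runs. The others had edgeR log2 ratios of -0.19 (SE 0.11) for RHAG, -0.41 (SE 0.31) for GYPC, 0.10 (SE 0.17) for ANK1, 0.34 (SE 0.41) for GYPB, 0.56 (SE 0.83) for EPB42 and 1.44 (SE 0.81) for SPTB, each with an adjusted p of 1. DESeq2 called 209 genes and none of the 8 members, and limma voom called none (683 genes at an unadjusted p under 0.05). Averaged over libraries as a mean of log2(CPM + 1), the EPB41 difference in the benzene run was -0.32 in place of the -0.91 from sums, while in the imatinib run it was -0.70 in place of -0.62.

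Partners of RHAG were read in the same sums. The antigens RHD and RHCE, which form a complex with RHAG, were lower in Orange than Green of the imatinib run, 28.6 against 75.1 CPM and 8.89 against 20.5 CPM, while RHAG was 1.18-fold lower. In the benzene run RHD had 31.9 against 27.9 CPM in Orange and Green, and RHCE, below the detection minimum, had 13.6 against 6.43 CPM. The RHCE direction rested on 1 library, since its log2 ratio of 0.97 turned to -0.90 without the library with the most RHCE reads in each group and was -0.25 as a difference of means of log2(CPM + 1). RHD and RHCE share sequence, 10.3% and 14.7% of their stretches of 75 bases.

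**Figure D4:**
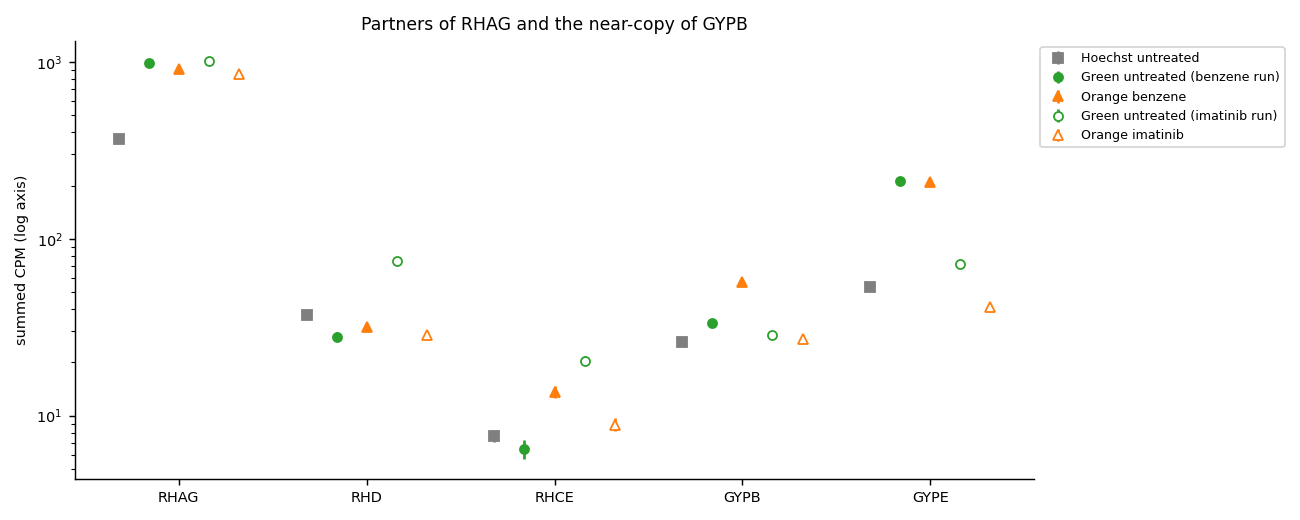
Summed CPM on a log axis for RHAG with RHD and RHCE and for GYPB with GYPE, in the 5 groups, with exact Poisson 95% intervals that are mostly narrower than the symbols. Orange benzene is the highest group for GYPB, both groups of the benzene run are highest for GYPE, and Green of the imatinib run is highest for RHD and RHCE.

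The other 34 genes of the red cell membrane placed the members among their neighbours on the scale of CPM per kb over all kept libraries. ACTB, the actin of the skeleton, had 868, MPP1, a scaffold at the actin junction, 103.3, the glycoprotein BSG 52.2, GYPE 49.5 and the tropomyosin TPM3 21.9. RHAG, at 285 CPM per kb, thus lay between ACTB and MPP1. Of the 34, 21 were found in 50% of libraries or more, while the blood group carriers ACKR1 and ICAM4 were detected in none.

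Of these 34 genes 23 were tested in the benzene run, of which 4 were higher in Orange by 2-fold and 1 was lower, where 12.9% and 10.9% of all genes tested were. Among the higher genes were the actin-bundling DMTN (5.56-fold), the actin-capping TMOD1 (2.18-fold) and the glucose transporter SLC2A1 (2.13-fold), and the lower was the mechanosensitive channel PIEZO1 (76.7 against 227 CPM). Without the library with the most DMTN reads in each group its log2 ratio went from 2.17 to 1.13. The median log2 ratio of the list was 0.18, beside 0.05 for all genes tested. In the imatinib run 0 of 27 were higher and 2 were lower, RHD and RHCE, where 3.76% and 4.3% of all genes were, with a median of -0.22 beside -0.02. In edgeR 0 of the 28 tested were called.

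Untreated cells were compared between runs, which also differed in passage, stain, read length and sequencer. The paper states that the experiment stained with Hoechst used a distinct lot of K562. Dead cells were sequenced only in that experiment, and its fixed cells were stored for longer. These differences cannot be told apart. The 2 comparisons of the Hoechst run share its libraries. RHAG was 2.67-fold lower in the Hoechst run than in Green of the benzene run and 2.74-fold lower than in Green of the imatinib run (log2 ratios -1.41 and -1.45, and between -1.25 and -1.67 under every alternative). Against Green of the benzene run, EPB41 was 2.28-fold lower and SPTB 2.58-fold higher, so that of the 6 members tested 1 was higher and 2 were lower, where 26.7% and 11.8% of 11052 genes were. The EPB41 difference lay in a few Green libraries, since its medians were 67.2 and 76.5 CPM and the means of log2(CPM + 1) differed by 0.09 the other way. EPB42, below the detection minimum there, had 8.27 times the CPM. Against Green of the imatinib run, RHAG was the 1 of 7 members past 2-fold, where 20.6% of 11719 genes were higher and 13% lower. ANK1 was 1.78-fold lower. Of 6 megakaryocyte markers, ITGA2B moved with the Hoechst run, at 54.1 CPM against 8.14 and 1.43 CPM in the Green groups. The 6 markers together summed to 58.1 CPM in the Hoechst run and 8.82 and 2.54 CPM in the Green groups of the benzene and imatinib runs, and GP9 and PF4 had no reads in any run. Their part in the RHAG difference was not tested.

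The untreated Green groups of the CellTracker runs differed in SPTB, 2.71-fold lower in the benzene run, and in EPB42, 4.86-fold lower. These were 2 of the 7 members tested, where 11.9% of 11098 genes were higher and 19.9% lower. RHAG was within 1.03-fold. The median log2 ratio of the members was -0.10, beside -0.13 for all genes tested. By means of log2(CPM + 1), all 8 members were lower in the benzene run, from -0.099 for SLC4A1 to -1.97 for SPTB. ANK1 and GYPC were past 2-fold by this measure, at -1.47 and -1.005, while their ratios of sums were -0.10 and -0.25. The share of all genes past 2-fold by means of log2 is not given here, so ANK1 and GYPC are not set apart. Median detected genes were 5963 and 8082 in the Green groups of the benzene and imatinib runs.

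Co-expression of the members over the libraries of a run was weak. The median of Spearman's rho between pairs was 0.02 in the Hoechst run (15 pairs, 82 libraries), 0.07 in the benzene run (10 pairs, 65 libraries) and 0.11 in the imatinib run (15 pairs, 95 libraries), taken over the 6, 5 and 6 members found in 50% of libraries or more. All pairs of genes so detected had medians of 0.03, 0.05 and 0.04. No pair exceeded 0.17, and the lowest were RHAG with ANK1 in the Hoechst run (-0.155), RHAG with EPB41 in the benzene run (-0.20) and RHAG with SPTB in the imatinib run (-0.15). EPB41 with ANK1, the 2 adaptors of the skeleton, had 0.16, 0.06 and 0.11 in the Hoechst, benzene and imatinib runs. Libraries of a run share their culture and sequencing lane, and given the number of detected genes the partial medians were -0.01, 0.03 and 0.09. RHAG itself had a rho with the number of detected genes of 0.04, 0.29 and 0.27, and with depth of -0.38, 0.36 and 0.205. GYPB had 0.36, 0.13 and 0.135 with the number of detected genes.

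**Figure D5:**
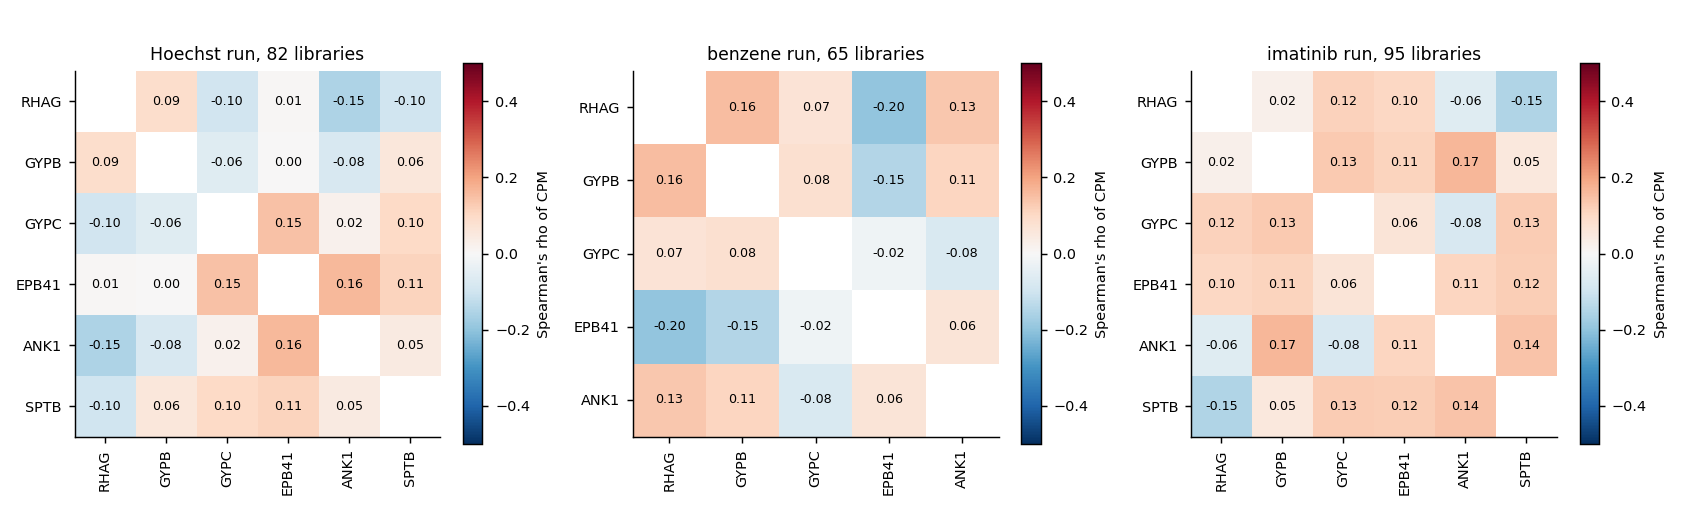
Spearman's rho of CPM over libraries for each pair of members found in 50% or more of a run's libraries, on a colour scale from -0.5 to 0.5. All cells are pale, with values between -0.20 and 0.17.

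Partners outside the set followed their members loosely, and the closest pair differed from run to run. GYPB and GYPE had a rho of 0.46 in the Hoechst run, 0.27 in the benzene run and 0.09 in the imatinib run. RHAG had 0.25, 0.21 and 0.17 with RHD, 0.25, 0.295 and 0.16 with RHCE, and 0.20, 0.02 and 0.07 with CD47, a membrane protein associated with the Rh complex. With the globin and heme genes found in 50% of libraries or more, GYPC had a median rho of 0.05 (7 genes), 0.23 (7 genes) and 0.22 (8 genes) in the Hoechst, benzene and imatinib runs, and RHAG had -0.16, -0.04 and -0.01. SPTB had 0.30 and 0.22 in the Hoechst and imatinib runs. GYPB had 0.10, -0.03 and 0.25 in the Hoechst, benzene and imatinib runs. In the same order EPB41 had -0.08, -0.05 and -0.04, and ANK1 had 0.0, -0.003 and 0.08. The 5 genes whose level was most like the mean of log2(CPM + 1) of RHAG, GYPB, GYPC, EPB41 and ANK1, by the lowest rho over the 3 runs among 5093 genes, were NSFL1C (0.28), DTNBP1 (0.24), TMEM168 (0.23), FAF1 (0.23) and ATL3 (0.23). The median gene had a lowest rho of -0.02. Taken singly, and chosen after their values were seen, RHAG was closest to BROX (0.51, 0.41 and 0.35 in the Hoechst, benzene and imatinib runs), GYPC to FTH1P2 and MRPL41 (lowest 0.33 and 0.31) and to FTH1, the ferritin heavy chain (0.31), and GYPB to RELN (0.29). EPB41 was closest to VPS13D (0.23) and ANK1 to C6orf89 (0.22).

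Relatives of the members that serve other tissues gave a contrast within families, on the scale of CPM per kb over all kept libraries. The spectrin SPTBN1 (9.53) exceeded SPTB (2.97), and SLC4A2 (6.04) exceeded SLC4A1 (0.278). In the other families the red cell member was the higher one, with ANK1 (18.1) over ANK3 (0.483) and ANK2 (1 read in all), EPB41 (6.06) over EPB41L2 (3.51) and EPB41L5 (1.20), and RHAG (285) over RHBG (2 reads in all) and RHCG (no reads, which allows 0.00961 CPM). Of the 16 paralogues, 3 were found in 50% or more of all kept libraries, SPTBN1 (91.3%), SLC4A2 (76.4%) and EPB41L2 (59.5%). Between Orange and Green of the benzene run 0 of the 7 tested passed 2-fold, where 12.9% of all genes were higher and 10.9% lower. Their median log2 ratio was 0.25, beside 0.05 for all genes tested. In the imatinib run 1 of the 8 tested was higher and 0 were lower, where 3.76% and 4.3% of all genes were. The median was 0.41 beside -0.02.

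The erythroid programme around these genes was present in part in every run. Of its 8 transcription factors, 7, 5 and 6 were found in 50% of libraries or more in the Hoechst, benzene and imatinib runs. Of its 10 globin and heme genes, 7, 7 and 8 were. Among the transcription factors GATA1 had 289 CPM per kb over all kept libraries, NFE2 156, KLF1 44.3, TAL1 23.3 and GFI1B 23.2. RHAG, at 285 CPM per kb, stood at the level of GATA1 on this scale. Of the globin and heme genes HBG2 had 2831 CPM per kb, HBE1 553, HBG1 492, HBA2 135 and HBZ 88.8, and HBB, the adult beta-globin, was detected in 2.07% of libraries. In the benzene run 0 of 7 factors and 0 of 7 globin and heme genes passed 2-fold between Orange and Green. Of all genes tested there, 12.9% were higher and 10.9% lower. Between Orange and Green of the imatinib run 1 of 8 factors did, ZFPM1, the cofactor of GATA1, at 14.4 against 6.15 CPM, and 0 of 8 globin and heme genes did. The ZFPM1 difference of means of log2(CPM + 1) was 0.12. Of all genes tested in the imatinib run, 3.76% were higher by 2-fold and 4.3% lower. Among 7 K562 markers BCR, a partner of the fusion gene, was higher by 2-fold in Orange of the benzene run, at 22.9 against 6.17 CPM. None passed 2-fold in the imatinib run. The 1 of 7 was near the 12.9% of all genes, so it does not set the markers apart. The BCR ratio without its top library is not given here.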

How the data were processed

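Single-cell libraries of K562 were made with SMARTer chemistry and sequenced with paired reads of 100 bases (Hoechst run) or 75 bases (CellTracker runs). The authors trimmed reads with skewer, aligned them with HISAT2 to GRCh37 with ERCC sequences, marked duplicates with Picard 1.92 and deposited counts per Ensembl gene from featureCounts (Subread 1.5.0 per the labels). Whether duplicates were counted is not given in the sources used here. The authors also deposited CPM, the counts scaled to 1000000 with ERCC included, and dividing the counts again gave the same values to a relative difference of 4.97e-07. No 2 libraries had identical counts. In the benzene run 4 columns matched no title and 4 titles no column, and these were not used.

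CPM were recomputed without ERCC. Counts of kept libraries were summed per group. Log2 ratios used a pseudocount of 1 CPM, and a gene was tested for 2-fold at 3 or more reads in at least 20% of the libraries of either group. The 4 CellTracker sums were fitted with edgeR 4.0.16 (filterByExpr, TMM, run term), all under R 4.3.3. DESeq2 (version 1.42.0) and voom from limma (version 3.58.1) served as other tests. Remaining values were computed with numpy 2.4.6, scipy 1.17.1 and pandas 2.3.3 under Python 3.11.15. Gene lengths and positions are from GENCODE v44lift37, later than the annotation used for counting, promoters from RefSeq on GRCh38.p14. The ratios of sums, Spearman's rho and the edgeR fit were run on simulated data, and the outcome is not given here. The labels do not tie libraries to separate cultures, so intervals and p-values describe these libraries. Members, lists and the rule for named genes (all members, the list genes past 2-fold in a drug comparison, the 5 highest per kilobase of a list, paralogues, and the 5 genes most like the mean of the detected members) were chosen with earlier results of these data known. ANK1 sequence is not shown, and some genes of the lists are not reported here. Depth and marker lists are given with the results.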

Additional observations from a re-analysis of the deposited data

Results flagged for a closer look

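The sums of GYPB differed in opposite directions in the 2 comparisons of Orange with Green. Its log2 ratio was 0.753 in the benzene run, 56.9 against 33.4 CPM, and -0.055 in the imatinib run, 27.3 against 28.4 CPM. With 1 sum per group the difference between the runs was not tested, and the counting interval of the imatinib value (-0.16 to 0.04) holds 0. As a difference of means of log2(CPM + 1) the values were 0.78 and 0.15, both positive. GYPE, which resembles GYPB, had 209 against 211 CPM in Orange and Green of the benzene run. Over libraries the GYPB medians were 31.7 against 16.4 CPM in the benzene run and 17.9 against 19.7 CPM in the imatinib run, with overlapping quartiles.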

How the results depend on the processing

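No paired analysis was possible because the labels give single libraries numbered titles and no replicate numbers shared between groups. The sums of Orange and Green were matched by run through the run term. Counted over all 8, below the detection minimum included, members past 2-fold in the benzene run were 1, and became 3 at a 1.5-fold threshold (with GYPB and EPB41) and 3 with all libraries (with EPB41 and EPB42). In the imatinib run the 1, SLC4A1, became 3 at 1.5-fold and 0 with a pseudocount of 10 CPM or as a difference of means of log2(CPM + 1). Between the Hoechst run and Green of the benzene run 4 became 2 with 10 CPM and 1 by means of log2(CPM + 1), where EPB41 turned from -1.18 to 0.085. Against Green of the imatinib run 1 became 2 with 0.1 CPM, 4 at 1.5-fold and 3 by means of log2. Between the Green groups 2 became 0 with 10 CPM. The share of all genes past each of these settings is not given here, and the shares given earlier cover tested genes at 2-fold only. These counts therefore do not set the members apart from other genes. The median rho of members rose from 0.022 to 0.178 with all Hoechst libraries and fell from 0.107 to -0.011 within Orange of the imatinib run. The causes were not tested. The means of log2 were added after seeing the data. No member was called in any of 11 alternatives to the edgeR test (0 to 0 when each sum was left out in turn, without the run term), but 10 of them called no gene at all, so this says nothing of stability. Depth limits the low members: thinning took SPTB from 46.2% to 35.4% of libraries in the benzene run.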
